A study of Mus musculus with 2 samples.

Results

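Genes that store glycogen in the liver, release it again and carry its glucose into glycolysis were examined for EP300 binding in newborn mouse liver. The 7 genes were Ugp2, Gys2, Gbe1, Ppp1r3b, Ppp1r3c, Pygl and Pklr, of 21938 protein-coding genes analysed. Every EP300 peak summit of the optimal peak list that lay within 50 kb of any annotated transcription start site (TSS) of these genes was taken, which gave 21 of 26844 summits. Within that list positions chose the summits, and no signal value did. The list itself had been thresholded on reproducibility, and the genes were chosen with earlier results of these data known. Of the 7 genes, 6 had at least 1 such summit and Gbe1 had none, beside 65.9% of all protein-coding genes with a summit at that distance. Within 10 kb the count was 4 of 7 (41.0% of all genes), and within 1 kb it was again 4 of 7 (23.8% of all genes).

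EP300, also known as p300, acetylates histones at active enhancers and promoters, where DNA-binding factors bring it, and chromatin immunoprecipitation followed by sequencing (ChIP-seq) maps where it sits. The samples form 1 group of 2 replicates, both from liver of B6NCrl mice at postnatal day 0, with no treatment or genetic change named and no sex recorded. The labels number them as biological replicates yet give both the same biosample and the same donor, so the spread between them may be technical, and whether the tissue came from 1 animal or a pool is not stated. No second condition was profiled, so the values below describe 1 tissue at 1 age, and no test between groups was possible.

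Liver stores glucose as glycogen late in gestation and draws on that store when the placental supply ends at birth. UDP-glucose pyrophosphorylase (Ugp2) makes the activated glucose that glycogen synthase (Gys2, the liver form) adds to the chain, and the branching enzyme (Gbe1) makes the branches. Glycogen phosphorylase (Pygl, the liver form) cuts glucose units off again, protein phosphatase 1 is brought to glycogen by the targeting subunits Ppp1r3b and Ppp1r3c, and pyruvate kinase (Pklr) catalyses the last step of glycolysis. The newborn liver also still holds blood-forming cells, and Pklr is used by both hepatocytes and red cells from different starts.

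The signal value of a peak is the authors' own, on a scale that is not stated, so it is read here mainly as a rank within a list, where rank 1 is the highest of 26844. Depth is unknown because the lists give no read counts. Of 5 hepatocyte marker genes 4 had a summit within 10 kb (Serpina1a did not), as did 5 of 5 erythroid, 3 of 3 endothelial and 2 of 3 stellate cell markers. None of 3 Kupffer cell, 3 bile duct or 4 other-tissue markers did. Which cell type gave a peak near any of the 7 genes was not tested, and more cells with a peak cannot be told apart from more EP300 per cell in whole tissue.

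The 21 summits were of middling strength for this tissue. Their signal values ran from 8.48 to 179 with a median of 36.2, against a median of 38.3 over all summits, and their median percentile in the list was 46.6. Only 8 of the 21 (38.1%) lay above the median of all. Promoters, taken as 1 kb around any annotated start of a protein-coding gene, held 7 summits (33.3%, against 23.4% of all summits), an exon held 1, an intron 1 and intergenic sequence 12. With starts of protein-coding transcripts only, a choice added after the data were seen, 6 summits were at promoters (20.9% of all), since 1 at Ppp1r3b is near a noncoding transcript's start alone. Upstream of the nearest start of their gene lay 11 summits, and 10 lay downstream. For 19 of the 21 (90.5%) the gene itself was the nearest protein-coding gene, a share that was 38.4% over all 58429 pairs of a gene and a summit within 50 kb. The 2 exceptions stood at the promoter of Recql, a DNA helicase gene downstream of Gys2. These 2 shares are not alike. The summits of Ugp2, Ppp1r3b and Ppp1r3c had no other protein-coding start within 50 kb, so their gene had to be the nearest. A summit with several genes in reach adds several pairs, of which only 1 can be with the nearest gene. The difference therefore says little about where EP300 sits.

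**Figure D1:**
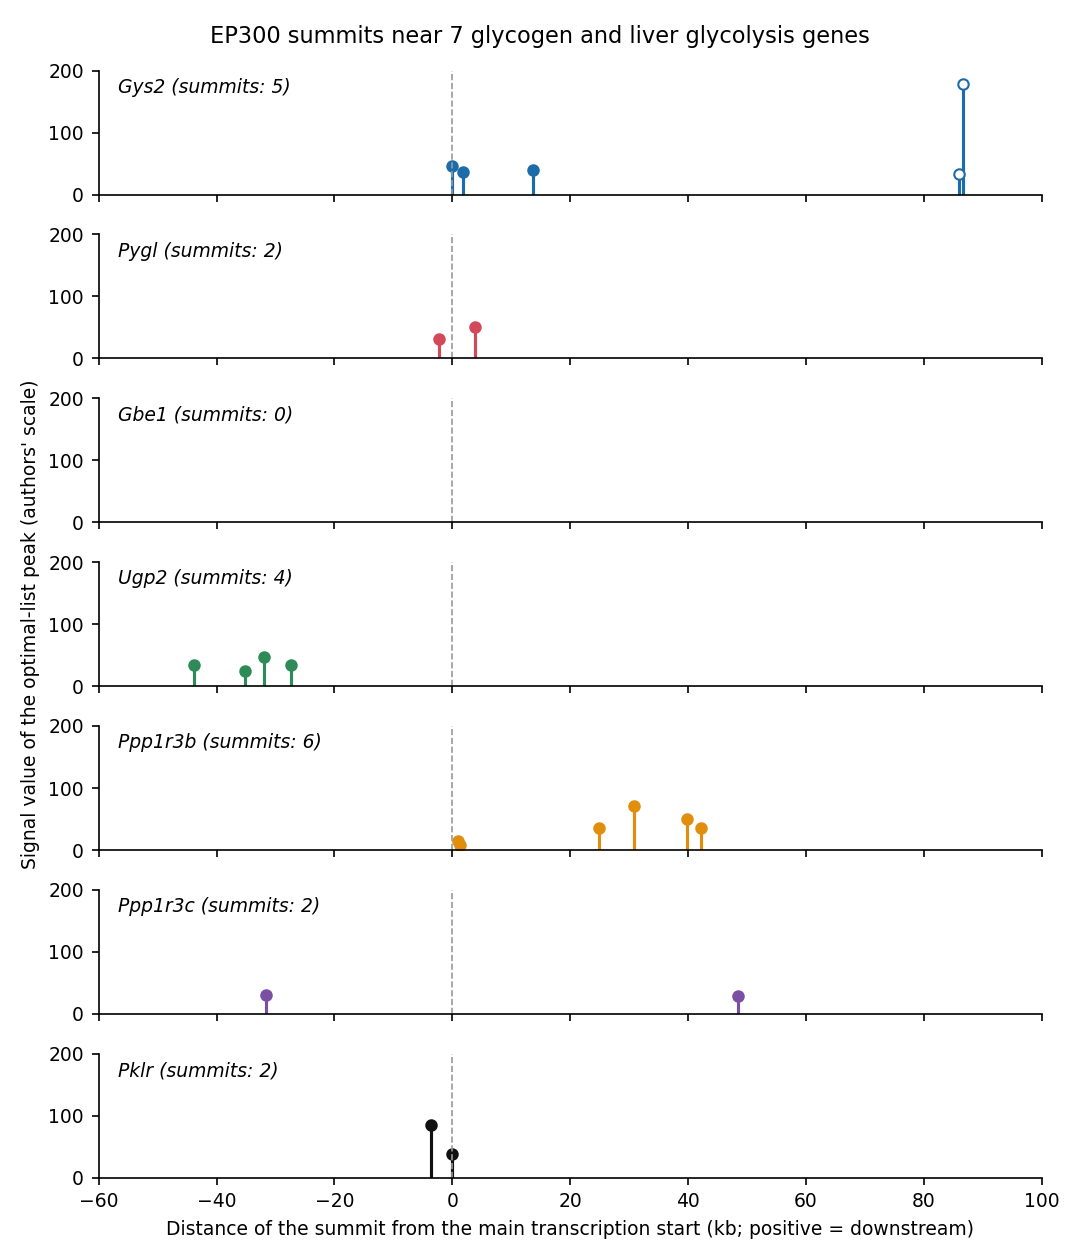
Signal value (vertical axis, authors' scale) of each optimal-list summit within 50 kb of a start of the 7 genes, against its distance in kb from the main start (dashed line, positive is downstream). Open circles mark the 2 summits at the Recql promoter. Gbe1 has none, Ugp2 and Ppp1r3c have only distal summits, and Gys2, Pygl, Ppp1r3b and Pklr have summits at or near a start.

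The 4 genes with a summit within 1 kb of a start were Gys2, Pygl, Ppp1r3b and Pklr. Ugp2 and Ppp1r3c had summits only from 27.4 kb and 31.6 kb outward. The number of summits was 6 at Ppp1r3b, 5 at Gys2, 4 at Ugp2 and 2 each at Pygl, Ppp1r3c and Pklr, and the median over the 7 genes was 2.00, the same as over all protein-coding genes. These counts move with the library: with the highest peaks of replicate 2 alone Gys2 had 2, Ugp2 2 and Pygl 1, and with those of replicate 1 alone Pklr had 5 and Pygl 4. As many as Ppp1r3b or more had 16.2% of genes, as many as Gys2 or more 22.2%, as many as Ugp2 or more 29.9% and 2 or more 51.1%. Genes with 0 made up 34.1%. Of the 6 genes with a summit the median highest signal was 61.2, against 68.3 over all genes with one.

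**Figure D2:**
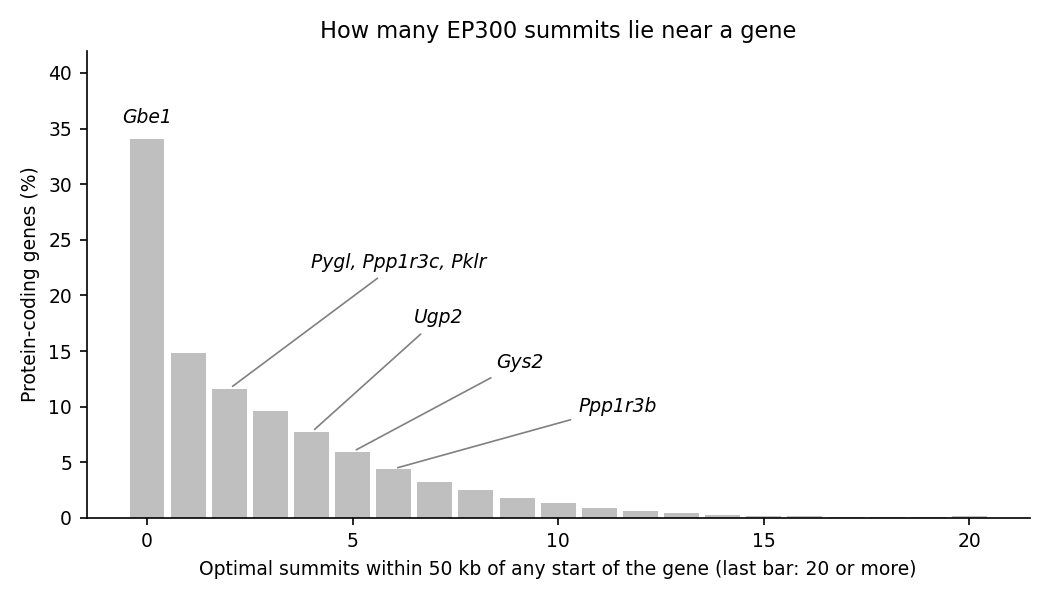
Share of protein-coding genes (vertical axis, %) by their number of optimal summits within 50 kb of any start (horizontal axis). Labels give the place of the 7 genes, from Gbe1 at 0 to Ppp1r3b at 6.

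For the sequences that follow, summit windows, which reach 50 bases to either side, and the RefSeq promoters were searched on both strands for 12 fixed motifs of factors known in liver, in blood or at promoters. Those of liver factors were HNF4 (CAAAGTCCA), CEBP (TTGCNNCAA), HNF1 (GTTAATNAT) and FOXA (TGTTTAC). The CEBP pattern as written is longer than the palindromic CEBP site and cannot match it. A window without a match may therefore still hold such a site. For the GATA factors, which act in blood cells among others, the pattern was AGATAA. The E-box, bound by basic helix-loop-helix factors, was searched as CACGTG. Those of signal-driven factors were the glucocorticoid receptor element (ACANNNTGT), CRE (TGACGTCA) and AP-1 (TGANTCA). Common at promoters are ETS (CCGGAAGT) and the CCAAT box (CCAAT). The last was the carbohydrate response element (ChoRE), written as CANGNG and CNCNTG with 5 bases between, a site type through which glucose acts on liver glycolysis genes. It can overlap an E-box, and the E-box, CRE, AP-1, ChoRE and glucocorticoid receptor patterns read the same on both strands. Capitals mark a match to any of the 12. A match describes letters and does not show that a factor was bound.

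Ugp2 (chromosome 11, 21321138 to 21371201, minus strand) had its EP300 summits far upstream of the gene. All 4 were intergenic, with Ugp2 as the nearest gene, and lay 27.4, 31.9, 35.2 and 43.9 kb from its most upstream start. Their signal values were 33.6, 46.9, 24.5 and 34.8 in that order. The summit at 21403111, 31.9 kb away, was the strongest (rank 10272). It had 21.7 in replicate 1 and 24.4 in replicate 2, the only one of the 18 summits with a peak in both replicates that was not higher in replicate 1. The summit at 21398576 had 22.8 and 11.7, and the one at 21406353 had 19.4 and 4.18. The replicate 2 peak matched at 21406353 was weak, at rank 175637 of 299855 with a −log10 q-value of 0.27. The outermost, at 21415105, had 31.8 in replicate 1 and overlapped no peak of replicate 2, so it rests on 1 library.

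The window at the strongest Ugp2 summit is shown because both replicates placed its peak among their highest. Its ranks differed, 17417 in replicate 1 and 5710 in replicate 2, while the summit at 21398576 had 16330 and 15977. The window shown was the poorest in G and C of the 21 windows, at 34.7%, and held none of the motifs.
Ugp2 upstream summit (chr11:21403061-21403161, minus strand): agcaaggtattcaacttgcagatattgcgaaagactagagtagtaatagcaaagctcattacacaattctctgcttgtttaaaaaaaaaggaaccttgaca
At the Ugp2 promoter itself neither replicate had a peak that ranked high. Within 1 kb of a start the best peak was 9.33 in replicate 1 (rank 56371 of 299855) and 6.30 in replicate 2 (rank 50863). The next optimal summit outward lay beyond the limit, at 56.5 kb with a signal of 59.5.

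Gys2 (chromosome 6, 142422613 to 142473109, minus strand) had EP300 at its promoter, early in its first intron and in a coding exon. The promoter summit at 142473137, 28 bases upstream of the main start, had a signal of 46.2 (rank 10494), with 24.0 in replicate 1 and 19.4 in replicate 2, a log2 ratio of 0.31. Both replicates placed this peak among their highest. The intron 1 summit at 142471297, 1.81 kb downstream, had 36.5, with 27.9 in replicate 1 (rank 12481) and 3.98 in replicate 2 (rank 195810). The summit at 142459504, in exon 4 of 17 and 13.6 kb downstream, had 39.0, with 31.7 and 8.32. Of the 18 summits found in both replicates the intron 1 summit differed most between them, by a log2 ratio of 2.81.

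That intronic window is shown because it held CACGTG at 2 places, 142471299 to 142471304 and 142471308 to 142471313.
Gys2 intron 1 summit (chr6:142471247-142471347, minus strand): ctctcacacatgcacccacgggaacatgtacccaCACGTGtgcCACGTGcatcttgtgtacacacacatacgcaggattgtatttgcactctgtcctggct
The exonic window held a FOXA match and a CCAAT box, and the promoter window a CCAAT box. The other 2 summits counted for Gys2 stood at the Recql promoter, 581 and 53 bases from a Recql start. The summit 581 bases away had the highest signal of all 21, 179 (rank 1473), with 116 and 62.2 in the replicates. The other, 53 bases away, had 33.9, with 25.6 and 4.34 (replicate 2 rank 158689, −log10 q-value 0.29). They lay 86.7 and 86.0 kb from the main Gys2 start and came within 50 kb only through a short transcript (TSS 142423619) whose true start the annotation marks as not found. Leaving such transcripts out, a choice made after the data were seen, took the count for Gys2 from 5 to 3. Among summits nearest to their own gene the highest signal was then 84.5, at Pklr.

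Gbe1 (chromosome 16, 70313949 to 70569716, plus strand) was the gene without an EP300 summit in the optimal list. None lay within 100 kb either, and the nearest was at 72663000, 2102 kb away and nearest to Robo1, an axon guidance receptor gene, with a signal of 25.6. No other protein-coding gene had a start within 50 kb of a Gbe1 start. The conservative list had 0 as well.

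The replicates' own lists, which each hold 299855 analysed peaks and reach far weaker ones, did have peaks at Gbe1. Replicate 1 had 33 within 50 kb and replicate 2 had 30, where the median over all genes was 16.0 and 15.0. Gbe1 has starts far apart, so its searched stretch spans 200 kb, against 100 kb for a gene with a single start such as Ppp1r3c. Among the highest 26844 of each list were 4 and 2 of them. In replicate 1 the best stood at 70314714, 580 bases downstream of the nearest start, with 21.4 (rank 17778). In replicate 2 the best stood at 70352066, 37.9 kb away, with 11.1 (rank 17168), and the best within 1 kb stood at 70313655 with 9.99 (rank 19936). The single best peak thus lay at a different place of the gene in each replicate. Within 1 kb of a start, however, both had peaks among their highest 26844, 2 in replicate 1 and 1 in replicate 2. Of all genes, 27.4% had such a peak that near in replicate 1 and 22.3% in replicate 2. With either replicate's highest peaks alone in place of the optimal list, Gbe1 would count as having a summit within 50 kb, and all 7 genes would. Of all protein-coding genes, 67.2% had such a peak within 50 kb in replicate 1 and 66.9% in replicate 2.

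The gene of the phosphatase subunit Ppp1r3b (chromosome 8, 35375739 to 35388139, plus strand) had the most summits in the optimal list, 6, and no other protein-coding gene with a start within 50 kb. It was not first in every list: the conservative list gave it 4 and Pklr 5, and the highest peaks of replicate 1 alone gave it 4 against 5 each at Gys2 and Pklr. Its 4 stronger summits were intergenic, downstream of the gene. They lay 24.0, 29.9, 39.0 and 41.3 kb from the nearest start, at 35400613, 35406577, 35415632 and 35417995, with signal values of 36.2, 71.4, 50.6 and 34.8. All 4 were found in both replicates and in the conservative list. The one at 71.4 (rank 5732) had 54.5 in replicate 1 and 16.6 in replicate 2. The summit at 35415632 had 27.2 and 21.6, the one at 35400613 had 22.4 and 12.7, and the one at 35417995 had 20.2 and 14.2.

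The window of the strongest is shown because it held the other of the E-box matches, at 35406595 to 35406600.
Ppp1r3b downstream summit (chr8:35406527-35406627, plus strand): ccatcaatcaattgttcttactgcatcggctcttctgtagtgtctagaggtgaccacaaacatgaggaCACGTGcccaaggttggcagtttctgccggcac
The window at 35400613 held a glucocorticoid receptor match and those at 35415632 and 35417995 held none of the motifs. At the 5′ end of Ppp1r3b were the 2 weakest summits of the 21, at 14.4 (rank 25498) and 8.48 (rank 26561). They stood in intron 1, 0.901 and 1.23 kb downstream of the main start and beside the start of a noncoding transcript of the gene. Both were matched to the same peak of each replicate, 14.3 in replicate 1 and 5.82 in replicate 2, with a −log10 q-value of 1.51 and 0.51. Their matched values are therefore not separate observations. The summit with 8.48 also overlapped another replicate 2 peak, at 35377081 with 6.15. Neither of the 2 summits was in the conservative list.

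Ppp1r3c (chromosome 19, 36731731 to 36736653, minus strand), which encodes a second targeting subunit, had only weak distal summits. One lay 31.6 kb upstream at 36768232 with 30.1, and 19.7 and 10.1 in the replicates. The other lay 48.5 kb downstream at 36688183, within the noncoding gene Hectd2os, with 29.2, and 17.4 and 9.84 in the replicates. Both were matched in each replicate and kept in the conservative list. Within 1 kb of the start the best peaks were 7.15 in replicate 1 (rank 108145) and 4.47 in replicate 2 (rank 142622). Of all genes, 58.6% had some peak of replicate 1 that near and 53.0% some peak of replicate 2. The highest signal near Ppp1r3c was lower than near 5 of the other genes, and a summit of 70.8, nearest to Tnks2, lay just beyond the limit at 58.8 kb.

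Pygl (chromosome 12, 70190811 to 70231488, minus strand), which encodes the enzyme of breakdown, had 2 summits close to its starts, and both rested on replicate 1. The summit at 70227722, 39 bases upstream of the downstream protein-coding start and 3.77 kb inside the longer transcript, had 51.0 (rank 9171) and 46.9 in replicate 1 (rank 5924). The summit at 70233749, 2.26 kb upstream of the first start and within the noncoding gene F730035M05Rik, had 31.1, and 26.0 in replicate 1. Neither overlapped any of the 299855 peaks of replicate 2, and neither was in the conservative list. Near Pygl replicate 2 had 21 peaks within 50 kb, the best at 9.84 (rank 20395), and 6.86 was the best within 1 kb (rank 40573). No optimal summit lay between 2.26 and 100 kb from a Pygl start.

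The conservative list placed EP300 elsewhere at Pygl, at 70232334, 0.846 kb upstream of the first start, with 24.6, and at 70232553 with 9.25. Both overlapped 1 peak in each replicate, 16.9 and 9.84. The promoter below, in which the optimal summit stood, is shown because its summit window was the richest in G and C of the 21, at 77.2% with 8 CpG. It is credited to RefSeq (GRCm38.p6) without its exon bases, and it held none of the motifs.
Pygl promoter (chr12:70227684-70227840, minus strand): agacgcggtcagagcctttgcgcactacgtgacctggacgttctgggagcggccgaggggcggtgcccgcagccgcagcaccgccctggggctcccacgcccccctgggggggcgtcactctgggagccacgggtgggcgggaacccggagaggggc

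Pklr (chromosome 3, 89136142 to 89146784, plus strand) had the strongest summit among those nearest to their own gene. It lay 3.60 kb upstream of the first start, at 89132541, in intergenic sequence, with a signal of 84.5 (rank 4484). Its values were 64.5 in replicate 1 (rank 3718) and 21.5 in replicate 2 (rank 6885), with −log10 q-values of 4.10 and 2.65. The promoter summit at 89136093, 49 bases upstream of the first start, had 37.8 (rank 13619), and 26.8 and 8.76 in the replicates. Both were in the conservative list. Pklr stands among 7 other genes with starts within 50 kb of its own (Clk2, Fam189b, Fdps, Gm43738, Hcn3, Rusc1 and Scamp3), yet was the nearest to both summits.

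Pklr has separate starts for its forms. As background, transcripts from the first start encode the red cell form and those from the start further in encode the liver form. The promoters of both are shown to place the optimal peak against them, together with the window of the upstream summit, which had 64.4% G and C, 7 CpG and none of the motifs. Promoters are from RefSeq (GRCm38.p6) without exon bases.
Pklr upstream summit (chr3:89132491-89132591, plus strand): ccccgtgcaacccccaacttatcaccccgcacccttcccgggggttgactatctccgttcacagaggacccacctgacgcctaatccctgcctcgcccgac
Pklr promoter at the first start (chr3:89135892-89136121, plus strand): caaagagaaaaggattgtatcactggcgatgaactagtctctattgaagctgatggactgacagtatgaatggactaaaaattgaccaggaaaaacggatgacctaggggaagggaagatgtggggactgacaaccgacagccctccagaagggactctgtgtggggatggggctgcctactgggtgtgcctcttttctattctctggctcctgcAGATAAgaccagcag
Pklr promoter at the liver start (chr3:89136373-89136516, plus strand): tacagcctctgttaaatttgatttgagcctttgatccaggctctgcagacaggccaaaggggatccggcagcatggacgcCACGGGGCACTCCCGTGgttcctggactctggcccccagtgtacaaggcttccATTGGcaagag
The optimal peak, 89135901 to 89136284, covered the first start. Its summit window held AGATAA, the GATA match, at 89136107 to 89136112. Beyond the peak, Pklr starts were annotated at 89136572, 89136579 and 89136623, the last for a noncoding transcript. The first of them, here called the liver start, lay 479 bases from the summit and 288 bases beyond the end of the peak. The promoter printed for it ends at 89136516 and so does not adjoin it. The ChoRE pattern matched in the promoter of the liver start at 89136453 to 89136469, 169 bases beyond the end of the peak. Such a match was found in 0.454% of 32851 RefSeq promoters of 250 bases and in 0.145% of all summit windows.

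The conservative list gave Pklr 5 summits where the optimal list gave 2. Those added near the liver start were at 89136424, 148 bases upstream of that start, with 16.6, and at 89136672 with 11.6. The first of these had 14.1 and 8.76 in the replicates, the latter value being the same replicate 2 peak that the optimal promoter summit overlapped. The second had 13.3 in replicate 1 and none in replicate 2. The last of the added summits, at 31.5, stood at the promoter of Fdps.

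Across the 21 summits, replicate 2 held fewer of the peaks than across the whole list. All 21 overlapped a peak of replicate 1 (99.8% of all optimal summits did) and 18 a peak of replicate 2 (95.9% of all), so that 85.7% were found in both, against 95.7% of all. Among the highest 26844 peaks of replicate 1 were 19 (90.5%, against 82.4% of all), and of replicate 2 12 (57.1%, against 74.2% of all). The 2 that were among the highest of neither replicate were the weak pair in intron 1 of Ppp1r3b. An overlap of 1 base sufficed, so a match in replicate 2 could be weak. At the Gys2 intron 1 summit it had rank 195810 of 299855 and a −log10 q-value of 0.24. In the conservative list 13 of the 21 (61.9%) were kept as the same peak, against 74.4% of all.

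Of the 18 found in both replicates, 17 had the higher signal in replicate 1. The median log2 ratio of replicate 1 to replicate 2 was 1.13 (SD 0.80, from -0.17 to 2.81), and over 25702 matched summits of the whole list it was 0.94 (SD 0.74). Pearson's r of the log2 signal values between the replicates was 0.646 and Spearman's rho 0.395 over the 18, against 0.777 and 0.695 over all 25702. These are descriptions across peaks, which share the 2 libraries and are not independent, and 2 of the 18 share 1 peak.

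**Figure D3:**
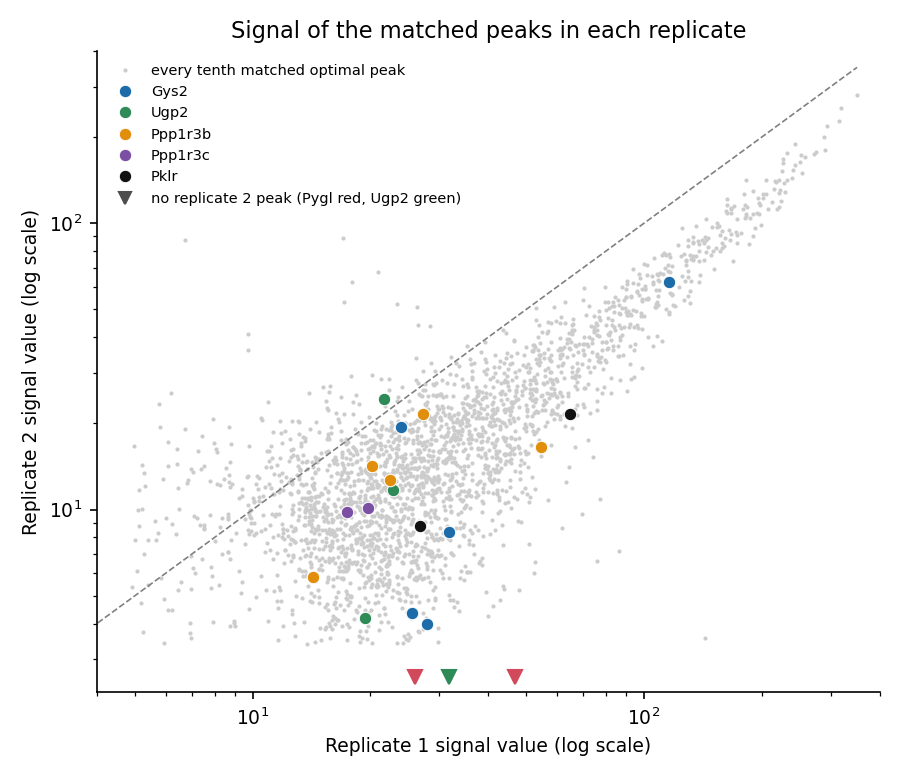
Signal value of the matched peak in replicate 2 (vertical, log scale) against replicate 1 (horizontal, log scale), with coloured points for the 18 summits found in both, grey points for a sample of all matched summits and a dashed line of equal values. The pair of Ppp1r3b summits that share a peak overlie each other at 14.3 and 5.82, and triangles mark the 3 summits, 2 of Pygl and 1 of Ugp2, that overlapped no replicate 2 peak.

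Of the 21 summit windows, 12 held none of the 12 motifs. GATA matched in 3 (14.3%, against 22.3% of all summit windows), which were the strong Recql summit, the Ugp2 summit 35.2 kb upstream and the Pklr promoter. The CCAAT box matched in 3 (14.3%, against 13.1%), and the E-box in 2 (9.52%, against 2.26%), in Gys2 and Ppp1r3b. FOXA and the glucocorticoid receptor element matched in 1 each (4.76%, against 3.06% and 5.97% of all). HNF4, CEBP, HNF1, ChoRE, CRE, AP-1 and ETS matched in 0. Over all summit windows their shares ran from 0.145% for ChoRE to 5.62% for AP-1. At such shares 21 windows would hold few matches or none. For CEBP the 0 covers only the pattern searched. Windows of G and C content from 34.7% to 77.2% had a median of 50.5%, against 47.5% of all.

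**Figure D4:**
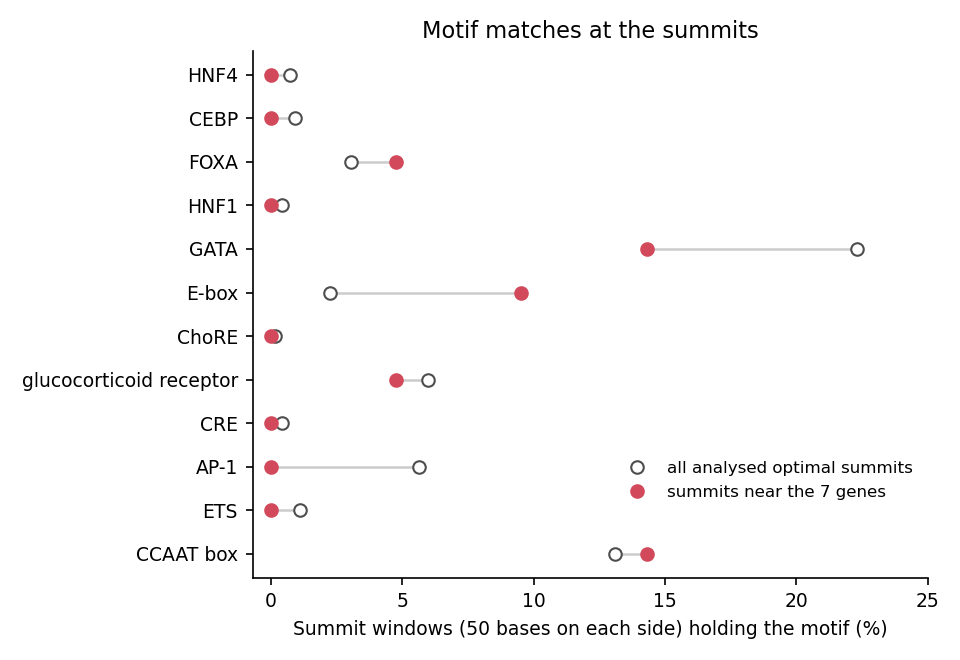
Share of summit windows (50 bases on each side) that held each of the 12 motifs (horizontal axis, %), with red points for the 21 summits near the 7 genes and open circles for all 26844 summits. The E-box, in 2 of 21 windows, and GATA, in 3 of 21, lie furthest from the share of all windows, and 1 window alone is 4.76%.

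Other genes of the same pathways were counted from lists. Over all protein-coding genes, the shares with a summit were 65.9% within 50 kb, 41.0% within 10 kb and 23.8% within 1 kb. Of 26 other glycogen genes 20 (76.9%) had a summit within 50 kb, 17 within 10 kb and 9 within 1 kb, and 6 had none. Those were the brain phosphorylase gene Pygb, the phosphorylase kinase subunit genes Phka1 and Phkb, the targeting subunit genes Ppp1r3a and Ppp1r3f, and Nhlrc1, which encodes the ubiquitin ligase malin. The median highest signal of the 20 was 56.3, against 68.3 over all genes with a summit within 50 kb. Only Gsk3a, which encodes a kinase that phosphorylates glycogen synthase, had its highest peak at its own promoter (142) among the 4 with the highest values. The highest near Phkg2, the liver catalytic subunit of phosphorylase kinase, was 195 but lay 44.6 kb away and nearest to Zfp629. Those near the phosphatase gene Ppp1cc (107) and the muscle phosphorylase gene Pygm (102) were nearest to Ccdc63 and Sf1.

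Of 23 other glycolysis genes 22 (95.7%) had a summit within 50 kb, 16 within 10 kb and 12 within 1 kb. Over all protein-coding genes these shares were 65.9%, 41.0% and 23.8%. The median highest signal of the 22 was 59.7, against 68.3 over all genes with a summit within 50 kb. Gckr, which encodes the regulator of glucokinase, was the one without. The highest near Pfkfb1, which encodes the liver enzyme that makes and breaks the glycolytic activator fructose 2,6-bisphosphate, was 390. It lay 38.4 kb away in an intron of Alas2, the erythroid enzyme of haem synthesis. Pfkfb2, which encodes a related enzyme, had 352 at 12.2 kb, nearest to AA986860. The hexokinase gene Hk1 had 170 at its own promoter, and Mlx, whose protein pairs with ChREBP at the carbohydrate response element, had 161 at 23.4 kb, nearest to Naglu. Of these 8 genes with the highest values in their list, the peak was nearest to the gene itself at Gsk3a and Hk1.

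**Figure D5:**
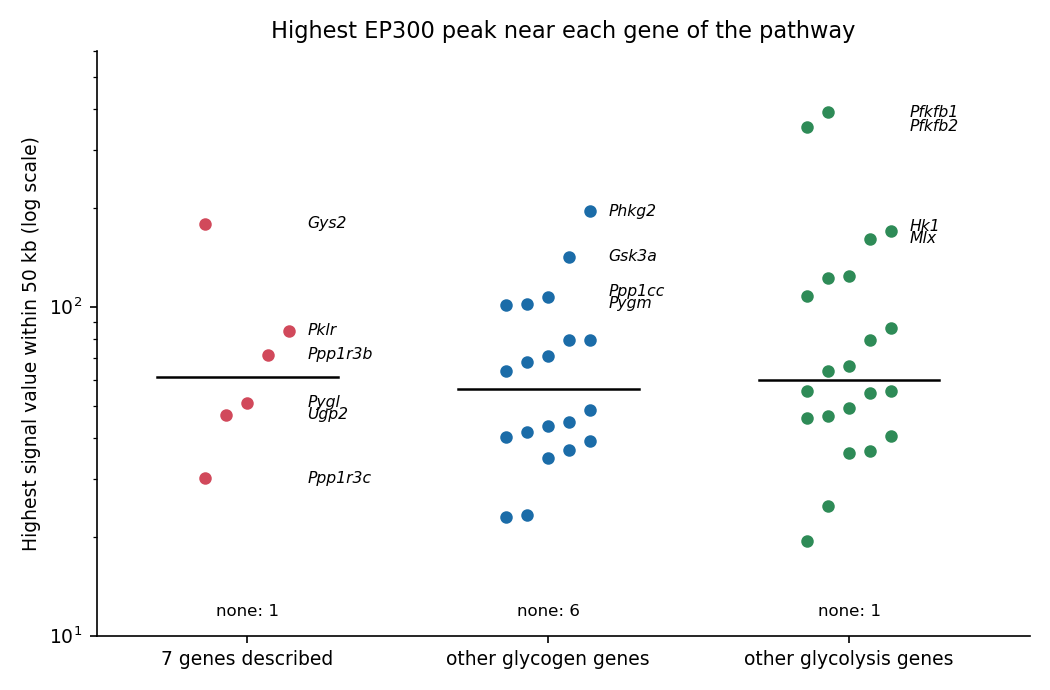
Highest signal value (log scale, authors' scale) within 50 kb of each of the 7 genes, the 26 other glycogen genes and the 23 other glycolysis genes, with 1 point per gene with a summit and a line at the median (61.2, 56.3 and 59.7). The numbers below count genes with no summit, and names are given for the 7 genes and the highest 4 of each other list.

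Near the limit of 50 kb, the outermost summit inside lay at 48.5 kb for Ppp1r3c, 43.9 kb for Ugp2, 41.3 kb for Ppp1r3b, 37.2 kb for Gys2 and 3.60 kb for Pklr. The first outside lay at 54.3 kb for Ppp1r3b (38.0, nearest to Eri1) and 57.6 kb for Gys2 (66.7, nearest to Ldhb), beside those of Ugp2 and Ppp1r3c given above.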

How the data were processed

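EP300 ChIP-seq of newborn liver was analysed from 5 deposited peak lists on mm10. Per the descriptions deposited with the lists, each replicate's list was called from its alignment with a control alignment, 1 list was called on both replicates together (pooled), and the optimal and conservative lists were thresholded by the irreproducible discovery rate (IDR). The sources used here name no aligner, peak caller, threshold or version. The deposited signal value of each peak has no stated scale, and for all 26844 analysed optimal peaks it equals that of the pooled list, so it adds nothing independent of the replicates. The deposited replicate lists give a −log10 q-value. In the other lists the deposited column 9 falls below 0 and was treated as a score, as was the authors' IDR score (up to 1000). No list gives read counts, so depth and its precision are unknown. The series files held 0 columns of other series.

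Of 26883 optimal peaks, those on chromosomes 1 to 19 and X were kept. The optimal list had 0 peaks on Y, and on all 21 chromosomes, Y included, the peaks of every list ended inside the GRCm38 reference. Starts came from GENCODE M21. Summits were assigned to promoters (up to 1 kb from any transcript start of a protein-coding gene, noncoding transcripts included), exons, introns or intergenic sequence. A replicate peak matched with an overlap of at least 1 base, and of several the one with the nearest summit was taken. Coordinates are 1-based. The RefSeq promoter table matched 5 of the 7 genes, and Gys2 and Ppp1r3b are named only. Python 3.11.15, pandas 2.3.3, numpy 2.4.6, pysam 0.24.0 and matplotlib 3.10.9 were used, and the steps were tested on simulated data. No significance test was run. All 7 genes are named, with the nearest gene of each summit described, and of each pathway list the 4 genes with the highest signal and those without a summit. The genes and lists were chosen with earlier results of these data known. Alternatives changed the distance, the starts, the peak list, the replicate used, the match and the motif window.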

Additional observations from a re-analysis of the deposited data

How the results depend on the processing

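Of the 7 genes, 6 had a summit with 100 kb, with protein-coding transcripts' starts only, with nearest summits only, with the conservative list and with starts marked as not found left out (a setting added after seeing the data). The count was 4 within 10 or 25 kb, 5 with the top 50% of peaks and 7 without replicate 1 or without replicate 2. The 21 summits became 8 within 10 kb, 10 within 25 kb and 8 with the top 50% of peaks, and 16 to 29 with 1 replicate left out. The share of all protein-coding genes with a summit, 65.9%, became 41.0% within 10 kb, 54.2% within 25 kb, 76.5% within 100 kb, 64.1% with protein-coding transcripts only, 41.1% with nearest summits only, 65.5% without starts marked as not found, 62.9% with the conservative list, 52.7% with the top 50% and 66.9% to 67.2% with 1 replicate left out. The median percentile, 46.6, became 40.0 with the conservative list, 31.3 with the top 50% of peaks, 44.1 without replicate 1 and 37.9 without replicate 2. Of the 8 summits within 10 kb, 6 were found in both replicates. Of the 21, this held for 15 with summits within 100 bases. Among the highest peaks of each replicate it held for 12 of the 21, against 64.0% of all optimal summits. Shares over all summits are not given for the 10 kb and 100-base settings. With only replicate 2 required 18 of the 21 matched, and with only replicate 1 required all 21 did. Counts per gene stayed within 1.5 times in 43 of 70 alternatives and motif counts in 22 of 24. Both tallies include counts that stayed at 0, which say little about stability. These were HNF4, CEBP, HNF1, ChoRE, CRE, AP-1 and ETS in both motif settings, and Gbe1 except with 1 replicate left out. The cause of the shifts between settings was not tested beyond what each setting leaves out. No paired analysis was possible because there is 1 group. Unknown depth and 2 libraries under 1 biosample label limit every value, most of all at Pygl, where both summits rest on replicate 1.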
